A study of Macaca mulatta with 13 samples.

Results

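Histone methylation and acetylation enzymes were examined in peripheral blood mononuclear cells, the lymphocytes and monocytes of blood, from rhesus macaques (Macaca mulatta) at 4 months of age. The enzymes were chosen by name from the platform annotation: the lysine acetyltransferases KAT2 to KAT8 with EP300 and CREBBP, the deacetylases HDAC and SIRT, the lysine methyltransferases KMT2, KMT5 and SETD with EZH1 and NSD1, and the lysine demethylases KDM1 to KDM8 without KDM5D. The rule found 51 genes among the 14132 that the annotation names by 1 symbol, and each gene was read from its probe set of highest mean. Of these, 50 were tested. KMT5C, a methyltransferase of lysine 20 of histone H4, lay below the filter, a mean over the 13 arrays above 6.04 on the log2 scale, with log2 values between 5.29 and 5.75.

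The study asked whether leukocyte gene expression depends on early rearing. The 13 animals were peer reared (n = 4), surrogate-peer reared (n = 4) or maternally reared (n = 5). All groups shared age, cell preparation and platform, and the labels name no genotype, sex or agent. As background, peer-reared infants grow up with age mates in place of the mother, and surrogate-peer-reared infants with an inanimate surrogate and limited time with age mates. Total RNA of each animal was hybridised to 1 Affymetrix rhesus array. Values are log2 expression summaries per probe set, and a difference of 1 is a doubling. Probe sets differ in how well they bind, so levels of different genes are not compared.

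These enzymes set and remove the acetyl and methyl groups on histone tails. Acetyltransferases add acetyl groups and loosen the packing of DNA, and deacetylases remove them. Methyltransferases and demethylases act on single lysines, where methylation marks active or silent chromatin according to the position. In blood cells both kinds take part in lineage choice and in the inducible genes of inflammation. The roles given below are known mainly from human and mouse work.

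Peer and surrogate-peer arrays differed from maternal arrays in ways beyond single genes. Within an array the log2 values had an SD of 2.130 to 2.158 in peer and surrogate-peer animals and of 2.096 to 2.120 in maternal animals. The array medians did not overlap either, at 5.995 to 6.043 in peer and surrogate-peer animals and 6.048 to 6.06 in maternal animals. The log2 ratio of 3' to 5' control signal, which rises as RNA degrades, ran from 1.33 to 1.74 in peer and surrogate-peer arrays and from 1.55 to 2.23 in maternal arrays. The markers of T cells, B cells, NK cells and monocytes that were measured all passed the filter. All 9 T cell markers had positive and all 9 B cell markers negative log2 fold changes in peer and surrogate-peer against maternal animals. In each list 1 passed limma's adjusted p of 0.05. Of 14 NK and cytotoxic markers 11 were negative, and 5 passed as lower and 1 as higher. Of 12 monocyte markers 9 were negative, and 1 passed as lower. Of all tested probe sets 8.0% passed. The T cell markers CD3D, CD3E, CD3G, CD2 and LCK were not measured. In bulk RNA, fewer cells of a type and less RNA per cell cannot be told apart. The part of these measures in the results below was not tested. Leaving arrays out changes several of the measures at once, so it cannot single out any of them.

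The first comparison set peer and surrogate-peer animals together against maternal animals. The histone demethylase KDM4B fell, and the deacetylases HDAC2 and SIRT1 and the methyltransferase KMT5B rose. The other 46 tested enzymes did not pass limma's adjusted p of 0.05. These 4 of 50 are 8% of the enzymes, beside 8.0% of all 26352 tested probe sets (2107, with 6.64% higher and 1.35% lower), so in this fit the enzymes were called at the background rate. At an unadjusted p under 0.05 there were 11 of 50 (22%), beside 29.0% of all tested probe sets.

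Fold changes were small. The median of the 50 log2 fold changes was 0.04, against 0.007 over all tested probe sets, and the median size was 0.12, against 0.16. In 35 of the 50 the change was under 0.2, and in 4 it reached 0.5. The 95% intervals, not adjusted for the number of tests, had a median half-width of 0.22, with a range from 0.14 to 0.78. The size of change that could be resolved thus differed between genes. For KAT7, at 0.19, the interval of 0.01 to 0.37 left out 0. For SETD9, at -0.52, the interval of -1.30 to 0.26 held 0. A positive sign was found for 33 of 50, beside 51% of all tested probe sets, but for 23 of 50 once each array was centred on its median (42.5% of all tested probe sets) and for 24 of 50 after quantile normalization (46.2%). Centring moved the median of all tested probe sets to -0.05 and quantile normalization to -0.02. Either scaling left 1 of the 4 calls, KDM4B. This 1 of 50 (2%) stood beside 7.32% of all tested probe sets with centring and 5.07% with quantile normalization. It did not exceed the background.

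**Figure D1:**
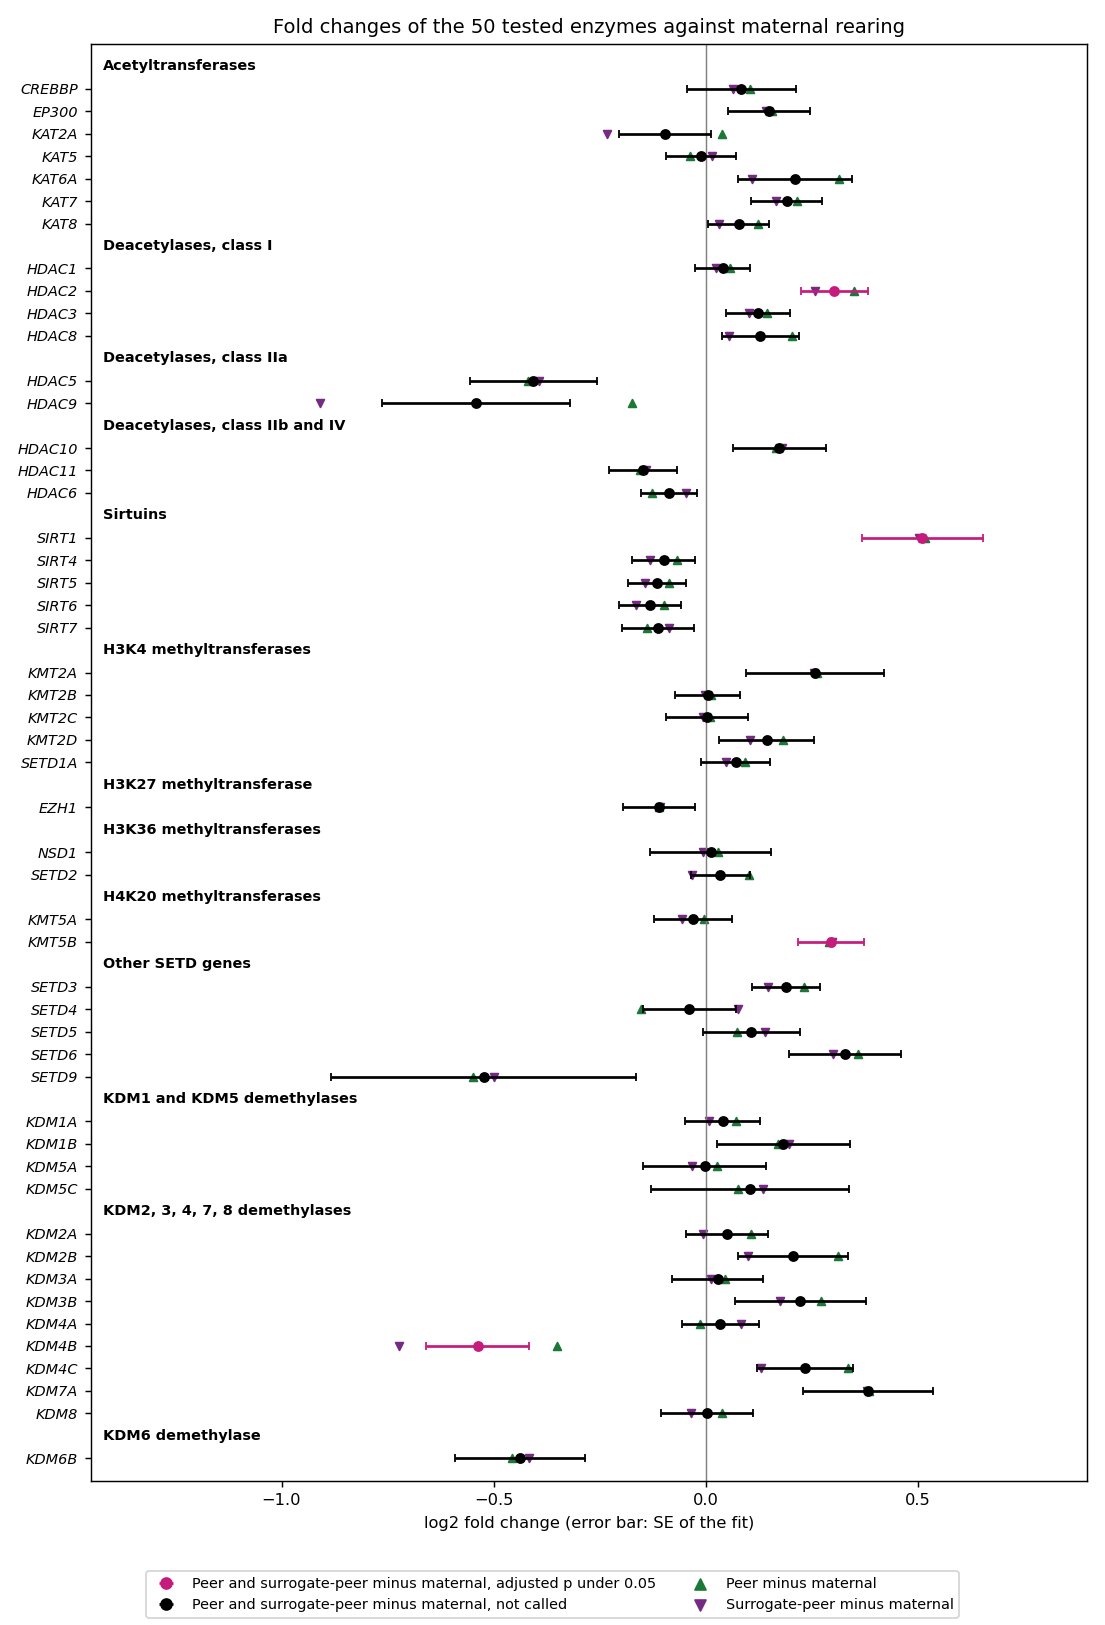
Log2 fold change of the 50 tested enzymes, ordered by role, for peer and surrogate-peer together minus maternal (points with SE bars), with peer minus maternal and surrogate-peer minus maternal as triangles. Pink points mark the 4 genes with adjusted p under 0.05, KDM4B below 0 and HDAC2, KMT5B and SIRT1 above it, while most other points lie within 0.2 of 0.

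Acetyltransferases did not pass the test. Of the 7 measured, 0 rose and 0 fell, and log2 fold changes ran from -0.10 to 0.21. KAT7, the catalytic subunit of the HBO1 complex, had the smallest p, with a log2 fold change of 0.19 ± 0.08 (SE, limma adjusted p = 0.151). KAT2A and KAT5, the catalytic subunits of SAGA and of the NuA4 complex, gave -0.10 and -0.01.

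EP300, a coactivator that acetylates histone H3 at enhancers, had values of 11.89, 12.01, 12.03 and 11.76 in peer animals and 11.94, 11.81, 11.91 and 11.98 in surrogate-peer animals, against 12.11, 11.44, 11.76, 11.76 and 11.77 in maternal animals. The maternal animals held both the highest and the lowest value, and the log2 fold change was 0.15 ± 0.10 (adjusted p = 0.318). Its 4 other tested probe sets gave 0.07 to 0.29. CREBBP, its close relative, had 10.96, 11.05, 11.28 and 10.78 in peer animals and 10.86, 11.04, 11.04 and 10.98 in surrogate-peer animals, against 10.92, 10.77, 10.46, 11.12 and 11.30 in maternal animals. Here too the groups overlapped throughout (0.08 ± 0.13, adjusted p = 0.682).

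KAT8, which acetylates lysine 16 of histone H4, differed between its probe sets. The brighter gave 0.08 ± 0.07 (adjusted p = 0.484) and the other 0.34 ± 0.08 (adjusted p = 0.0314). KAT6A, an acetyltransferase needed for blood stem cells, gave 0.21 at its brightest probe set and -0.58 and -0.34 at the others, none past the threshold.

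Class I deacetylases, the mainly nuclear enzymes of the Sin3, NuRD, CoREST and NCoR complexes, had 1 rise among 4. HDAC2 had log2 values of 10.20, 10.06, 9.98 and 10.09 in peer animals and 10.06, 10.00, 10.07 and 9.82 in surrogate-peer animals, against 9.97, 9.81, 9.64, 9.63 and 9.62 in maternal animals. All 4 peer values lay above all 5 maternal values, and surrogate-peer array 4 fell below the highest maternal array. This gave a log2 fold change of 0.30 ± 0.08 (SE), or 1.23-fold, with adjusted p = 0.0391.

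The second HDAC2 probe set gave 0.46 ± 0.09 (adjusted p = 0.0231). There all 8 peer and surrogate-peer values, 7.64 to 8.08, lay above all 5 maternal values, 7.18 to 7.62. No enzyme's brightest probe set separated the 8 from the 5 in this way, beside 2.87% of all tested probe sets. At the brightest probe set the HDAC2 call was lost when any 1 of 11 arrays was left out, with log2 fold changes between 0.28 and 0.36.

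At the brightest probe sets HDAC1, the near-twin of HDAC2, was the least variable of the enzymes, spanning 0.24 over the 13 arrays. It had 11.16, 11.10, 10.92 and 11.14 in peer animals and 11.00, 11.08, 11.17 and 10.95 in surrogate-peer animals, against 11.08, 10.99, 11.12, 10.96 and 10.97 in maternal animals. The log2 fold change was 0.04 ± 0.06 (95% interval -0.10 to 0.18, adjusted p = 0.694). The other tested HDAC1 probe set spanned 0.627, with means of 9.334 in peer and surrogate-peer animals and 9.161 in maternal animals. HDAC3, the deacetylase of the NCoR complex, had 9.005, 9.03, 8.83 and 9.001 in peer animals and 9.02, 8.80, 8.96 and 8.91 in surrogate-peer animals, against 8.90, 8.84, 8.97, 8.82 and 8.57 in maternal animals (0.12 ± 0.08, adjusted p = 0.291). In neither gene did the groups separate. HDAC8, the remaining class I enzyme, gave 0.13 ± 0.09 (adjusted p = 0.355).

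Both measured class IIa deacetylases, which shuttle between nucleus and cytoplasm and restrain MEF2 factors, had negative log2 fold changes that did not pass the test. HDAC5 had 9.95, 9.95, 9.89 and 9.70 in peer animals and 9.77, 10.14, 9.70 and 9.98 in surrogate-peer animals, against 9.76, 10.32, 10.04, 10.70 and 10.63 in maternal animals. Maternal array 1 lay among the lower values, and the other 4 maternal arrays reached above most of the rest. The log2 fold change was -0.41 ± 0.15 (adjusted p = 0.101), and its other tested probe set gave -0.18. HDAC9 is described with the group comparisons below, at -0.54 ± 0.22 (adjusted p = 0.132).

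Class IIb and IV deacetylases, HDAC6, HDAC10 and HDAC11, gave -0.09, 0.17 and -0.15, with the smallest p for HDAC11 (adjusted p = 0.239). The other tested probe set of HDAC10 went the other way, with a mean of 7.929 in peer and surrogate-peer and 8.06 in maternal animals. That of HDAC11 was also lower, 6.031 against 6.072.

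Of the 5 sirtuins, NAD-dependent deacylases, SIRT1 alone passed the test. It deacetylates histones as well as p53 and the p65 subunit of NF-kB. It had log2 values of 10.31, 10.17, 10.07 and 10.03 in peer animals and 10.02, 10.05, 10.35 and 10.10 in surrogate-peer animals, against 10.26, 9.58, 9.58, 9.50 and 9.22 in maternal animals. Maternal array 1 lay within the peer and surrogate-peer range and the other 4 maternal arrays below all 8. It rose by 0.51 ± 0.14 on the log2 scale (SE), or 1.42-fold, with adjusted p = 0.0475, the largest rise among the enzymes.

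SIRT1 has 1 probe set, so no other probe set bears on it. Without maternal array 1 the value was 0.67 ± 0.10 and the call held, while leaving out any other single array ended it. Without maternal arrays 2 and 5, which had the lowest T cell marker levels, it was 0.36 ± 0.15 (adjusted p = 0.193). SIRT4, SIRT5, SIRT6 and SIRT7 ran from -0.13 to -0.10, and none passed the test. The other tested probe sets of SIRT4 went the other way. Their means were 6.965 and 6.555 in peer and surrogate-peer animals, against 6.583 and 6.498 in maternal animals. The other tested probe set of SIRT6 was lower, 7.644 against 7.806.

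**Figure D2:**
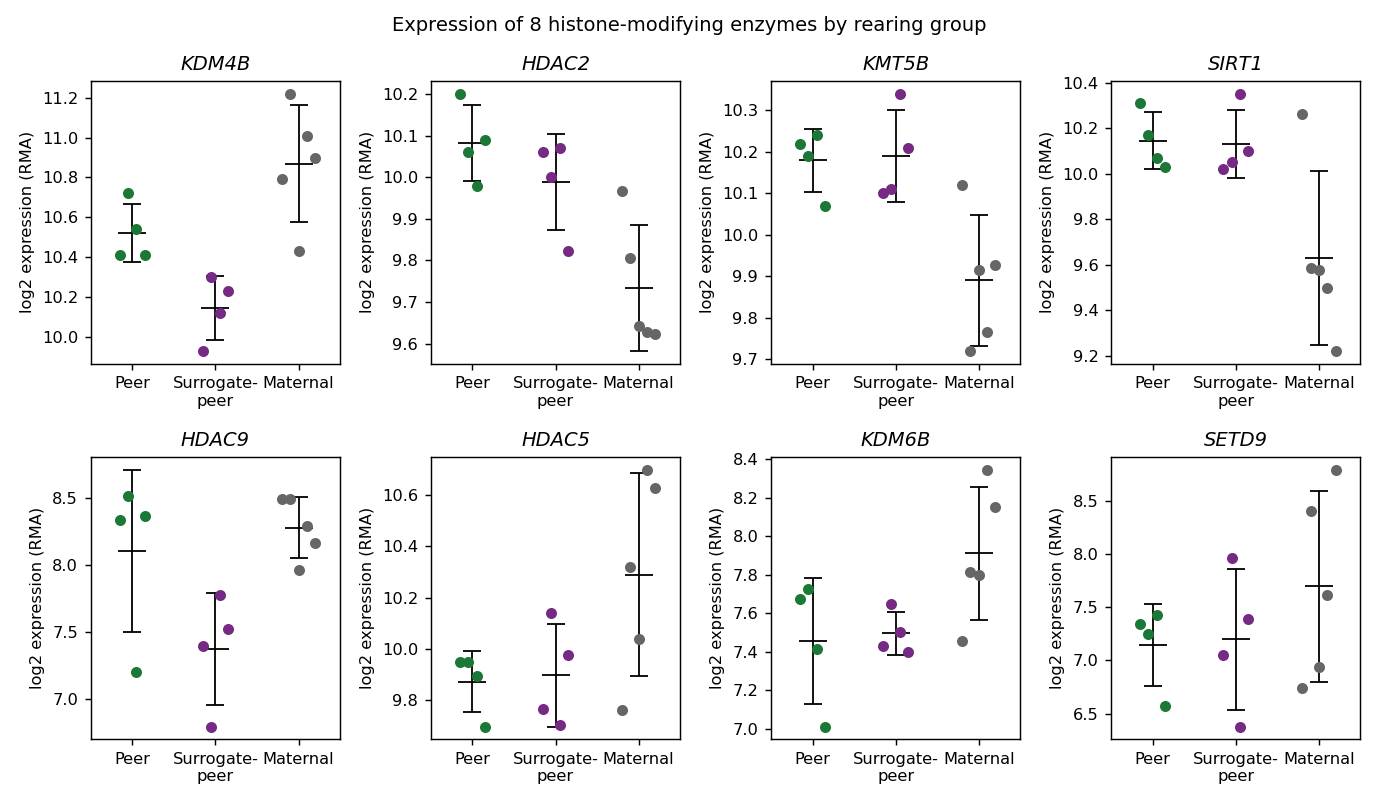
Log2 value of each array for KDM4B, HDAC2, KMT5B, SIRT1, HDAC9, HDAC5, KDM6B and SETD9 in peer, surrogate-peer and maternal animals, with the group mean and SD. Maternal array 1, at 10.26, stands apart from the other maternal arrays in SIRT1, and peer array 3, at 7.20, from the other peer arrays in HDAC9.

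Among methyltransferases of lysine 4 of histone H3, a mark of active promoters and enhancers, 0 of 5 passed the test, and log2 fold changes ran from 0.00 to 0.26. KMT2A, the MLL1 protein that maintains HOX gene expression in blood precursors, had the smallest p. It had 10.93, 11.04, 10.86 and 10.98 in peer animals and 11.00, 10.58, 11.20 and 10.98 in surrogate-peer animals, against 11.26, 10.22, 10.96, 10.65 and 10.36 in maternal animals. Maternal arrays 2 and 5 held the lowest values and maternal array 1 the highest (0.26 ± 0.16, adjusted p = 0.30). KMT2A has the most probe sets, 11, and its 9 other tested ones gave -0.01 to 0.48. Its relatives KMT2B, KMT2C and KMT2D gave 0.005, 0.002 and 0.14, and SETD1A gave 0.07.

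EZH1, a catalytic subunit of the Polycomb complex PRC2 that methylates lysine 27 of histone H3, had 8.59, 8.70, 8.62 and 8.58 in peer animals and 8.76, 8.63, 8.54 and 8.57 in surrogate-peer animals, against 8.53, 8.57, 8.69, 8.99 and 8.89 in maternal animals. The groups overlapped (-0.11 ± 0.08, adjusted p = 0.396). EZH2 was not analysed here.

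For lysine 36 of histone H3, marked along transcribed genes, the enzymes SETD2 and NSD1 gave log2 fold changes of 0.03 ± 0.07 and 0.01 ± 0.14. SETD2 had 8.92, 8.97, 8.89 and 8.76 in peer animals and 8.71, 8.76, 8.90 and 8.64 in surrogate-peer animals, against 8.91, 8.77, 8.63, 8.74 and 8.86 in maternal animals. NSD1 had 8.58, 8.47, 8.44 and 8.79 in peer animals and 8.56, 8.53, 8.49 and 8.56 in surrogate-peer animals, against 8.49, 8.25, 9.04, 8.83 and 8.09 in maternal animals. In NSD1 the maternal animals held both extremes, and both genes changed sign with the scaling between arrays.

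KMT5B, which adds further methyl groups to lysine 20 once it carries one of histone H4, a mark of compact chromatin, rose. Its log2 values were 10.22, 10.19, 10.24 and 10.07 in peer animals and 10.10, 10.11, 10.34 and 10.21 in surrogate-peer animals, against 10.12, 9.72, 9.92, 9.77 and 9.93 in maternal animals. Maternal array 1 overlapped the lowest peer and surrogate-peer values, and the other 4 maternal arrays lay below them. The rise was 0.29 ± 0.08 on the log2 scale (SE), or 1.23-fold, with adjusted p = 0.0415. The call was lost without any 1 of 12 arrays, at 0.25 to 0.35. Its other probe sets gave 0.65 (adjusted p = 0.0831) and 0.11. KMT5A, which adds the first methyl group there, had -0.03 ± 0.09 (adjusted p = 0.847). The other tested probe sets of KMT5A went the other way. Their means were 6.606 and 7.985 in peer and surrogate-peer animals, against 6.377 and 7.945 in maternal animals.

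The other 5 SETD genes had 0 calls and spread from -0.52 to 0.33. SETD6, which methylates the p65 subunit of NF-kB, gave 0.33 ± 0.13 (adjusted p = 0.126), and SETD3, a methyltransferase of actin, 0.19 ± 0.08 (adjusted p = 0.140). SETD4 and SETD5 gave -0.04 and 0.11. SETD9, named after its values were seen, varied most of the enzymes at the brightest probe sets, spanning 2.41 over the 13 arrays. It had 7.34, 7.25, 7.42 and 6.58 in peer animals and 7.06, 7.97, 6.38 and 7.39 in surrogate-peer animals, against 6.74, 8.40, 6.94, 7.61 and 8.79 in maternal animals. Its 3 highest arrays were maternal arrays 5 and 2 and surrogate-peer array 2, and its log2 fold change was -0.52 ± 0.36 (adjusted p = 0.342).

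Demethylases of lysine 4 of histone H3, KDM1A, KDM1B, KDM5A and KDM5C, had 0 calls of 4, with the smallest p for KDM1B (0.18 ± 0.16, adjusted p = 0.444). KDM1A, the flavin-dependent demethylase of the CoREST complex, had 9.07, 9.01, 8.81 and 8.99 in peer animals and 8.98, 8.83, 8.93 and 8.89 in surrogate-peer animals, against 9.10, 8.85, 9.07, 8.88 and 8.59 in maternal animals (0.04 ± 0.09, adjusted p = 0.780). KDM5C, named after its values were seen, ran within groups from 8.76 to 9.63 in peer, from 8.67 to 9.89 in surrogate-peer and from 8.82 to 9.28 in maternal animals. Its spread within a group was wider than its difference between groups (0.11 ± 0.23, adjusted p = 0.783).

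Of 9 other demethylases of the KDM2, KDM3, KDM4, KDM7 and KDM8 families, 1 fell. KDM4B removes methyl groups from lysine 9 of histone H3, a mark of silent chromatin. Its log2 values were 10.41, 10.72, 10.54 and 10.41 in peer animals and 9.93, 10.30, 10.12 and 10.23 in surrogate-peer animals, against 10.79, 11.22, 10.43, 11.01 and 10.90 in maternal animals. Maternal array 3 lay within the peer range and the other 4 maternal arrays above all 8. The log2 fold change was -0.54 ± 0.12 (SE), or 0.689-fold, with adjusted p = 0.0280, the smallest among the enzymes.

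The 3 other tested probe sets of KDM4B also had negative log2 fold changes, -0.39 (adjusted p = 0.0458), -0.48 (adjusted p = 0.0568) and -0.40 (adjusted p = 0.0702). KDM4B alone of the 4 was called under every change of filter, scaling, weights, covariate or prior. The call was lost without any 1 of 5 arrays, at -0.65 to -0.45 over all 13 omissions, and without maternal arrays 2 and 5 together (-0.41, adjusted p = 0.109).

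In the same families the other 8 genes had positive log2 fold changes at their brightest probe sets, from 0.002 to 0.38. None passed the test. KDM8 (0.002), KDM3A (0.028), KDM4A (0.035) and KDM2A (0.051) lay within their SE of 0.09 to 0.11, so their signs were not resolved. Of the other tested probe sets, those of KDM2A (-0.015) and KDM7A were negative and those of KDM3A, KDM3B and KDM4A positive. Centring each array on its median took the positive signs among all enzymes from 33 to 23 of 50. KDM7A, a demethylase of lysines 9 and 27 of histone H3, gave 0.38 ± 0.15 (adjusted p = 0.127), while its other probe set gave -0.11. KDM4C, of the same subfamily as KDM4B, gave 0.23 ± 0.11 (adjusted p = 0.192). KDM2A, KDM2B, KDM3A, KDM3B, KDM4A and KDM8 lay between 0.002 and 0.22.

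KDM6B, the inducible demethylase of lysine 27 of histone H3 in activated macrophages and T cells, had 7.67, 7.72, 7.42 and 7.01 in peer animals and 7.43, 7.65, 7.504 and 7.40 in surrogate-peer animals, against 7.45, 7.81, 7.80, 8.35 and 8.15 in maternal animals. Maternal array 1 lay among the 8 peer and surrogate-peer values and the other 4 maternal arrays above them. The log2 fold change was -0.44 ± 0.15 (adjusted p = 0.0898). KDM6A was not analysed here.

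Maternal array 1 thus sat with the peer and surrogate-peer arrays in SIRT1, HDAC5, KDM6B and KMT5B. Without it, 7 enzymes were called in place of 4: HDAC2, HDAC5, KDM4B, KDM4C, KDM6B, KMT5B and SIRT1. The calls over all tested probe sets also went up, to 4830 (18.3%), and 7 of 50 did not exceed that background. Without maternal arrays 2 and 5, 0 enzymes were called, beside 0.14% of all tested probe sets.

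**Figure D3:**
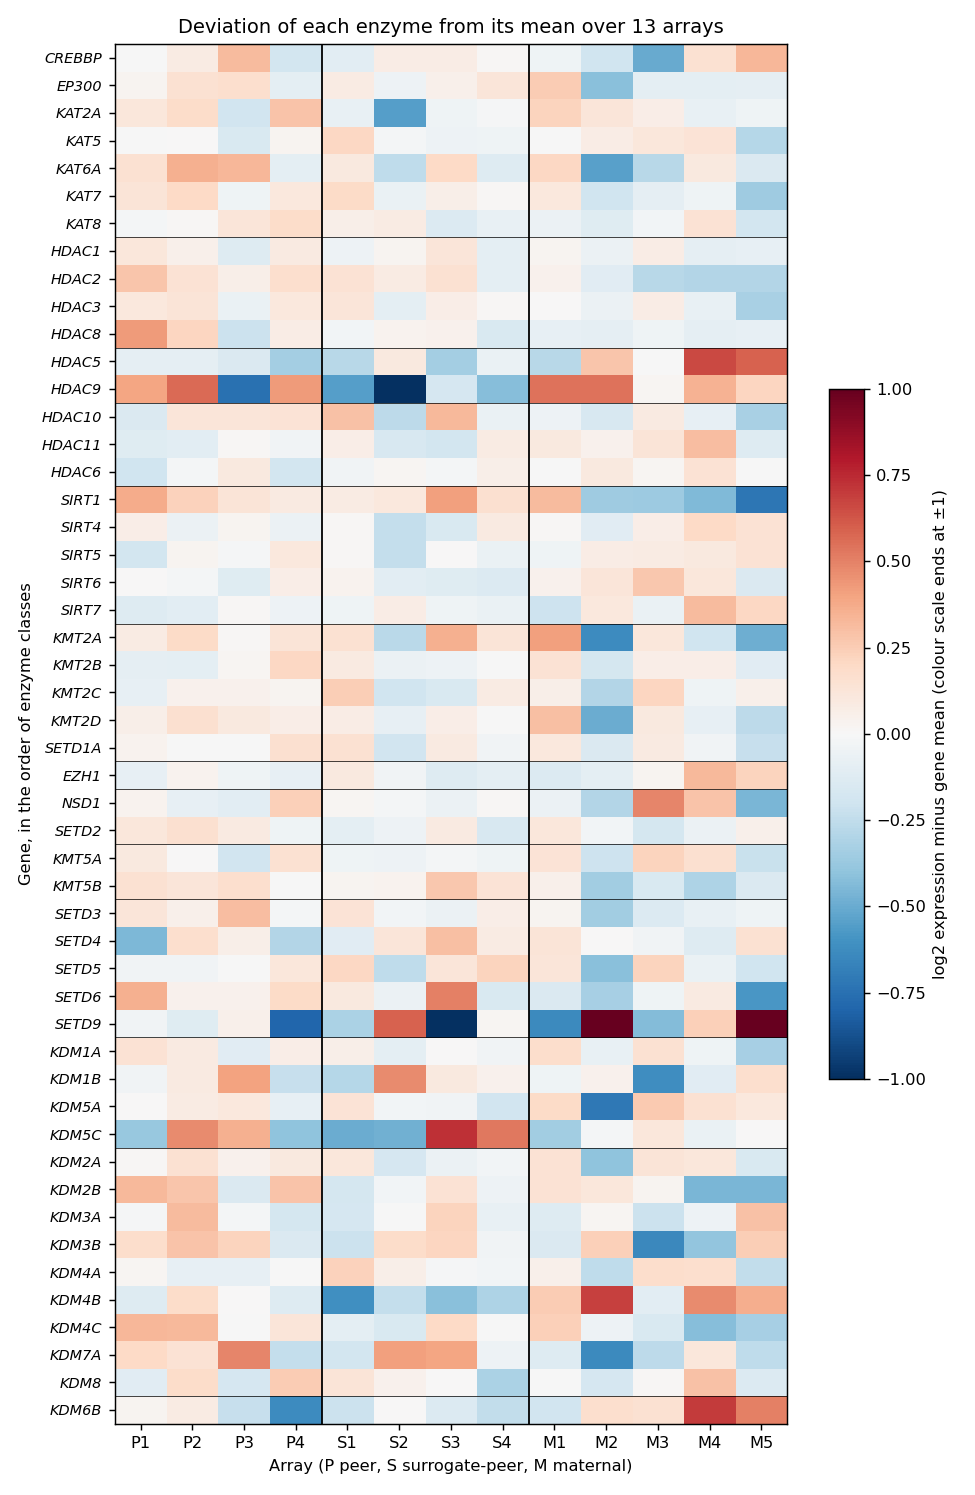
Deviation of each of the 50 enzymes from its mean over the 13 arrays (log2, colour scale from -1 to 1), arrays in columns by peer, surrogate-peer and maternal rearing, genes in rows by role. SETD9 and HDAC9 carry the strongest colours, while HDAC1 at its brightest probe set is nearly flat at a range of 0.24.

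Peer animals alone against maternal animals gave 0 called enzymes by limma, beside 0.353% of all tested probe sets, and 10 of 50 at an unadjusted p under 0.05, beside 24.9%. The smallest adjusted p was that of HDAC2, 0.0656, with a log2 fold change of 0.35 ± 0.09, and it was also the only enzyme whose groups did not overlap, beside 9.48% of all tested probe sets. KMT5B gave 0.29 ± 0.09 (adjusted p = 0.0929) and SIRT1 0.52 ± 0.17 (adjusted p = 0.0986). KDM4B gave -0.35 ± 0.14 (adjusted p = 0.155). With array weights 1 enzyme, HDAC2, was called, beside 5.86% of all tested probe sets, and with the number in the sample title as a covariate 2, HDAC2 and SIRT1, beside 6.90%. Neither count exceeded its background.

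Surrogate-peer animals alone against maternal animals also gave 0 called enzymes, beside 0% of all tested probe sets, and 7 of 50 at an unadjusted p under 0.05, beside 20.3%. KDM4B had the smallest adjusted p, 0.0742, with a log2 fold change of -0.72 ± 0.14, and all 4 surrogate-peer values lay below all 5 maternal values. HDAC2, KMT5B and SIRT1 gave 0.26 ± 0.09, 0.30 ± 0.09 and 0.50 ± 0.17, with adjusted p of 0.158, 0.121 and 0.138. HDAC9 was the only other enzyme without overlap. The 2 enzymes without overlap are set beside 5.44% of all tested probe sets. Both comparisons share the 5 maternal animals.

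HDAC9, a class IIa deacetylase active in B and T lymphocytes, had log2 values of 8.34, 8.52, 7.20 and 8.37 in peer animals and 7.40, 6.79, 7.78 and 7.52 in surrogate-peer animals, against 8.49, 8.49, 7.96, 8.29 and 8.16 in maternal animals. The surrogate-peer values were all below the maternal ones, and peer array 3 sat with the surrogate-peer arrays while the other 3 peer arrays sat with the maternal ones. Surrogate-peer minus maternal was -0.91 ± 0.26 (adjusted p = 0.110), or 0.533-fold. Peer minus maternal was -0.17 ± 0.26 (adjusted p = 0.691), and 0.13 without peer array 3.

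Surrogate-peer animals against peer animals gave 0 called enzymes by limma, beside 0% of all tested probe sets, and 2 of 50 at an unadjusted p under 0.05, HDAC9 and KDM4B, beside 1.83%. HDAC9 had a log2 difference of -0.73 ± 0.28 (95% interval -1.33 to -0.14, adjusted p = 0.9999). KDM4B had -0.37 ± 0.15 (95% interval -0.70 to -0.05, adjusted p = 0.9999). In KDM4B all 4 surrogate-peer values, 9.93 to 10.30, lay below all 4 peer values, 10.41 to 10.72, and it was the only enzyme without overlap, beside 1.74% of all tested probe sets. Under the alternatives that did not leave out a single array, the KDM4B difference ran from -0.49 to -0.17. The numbers in the sample titles ran from 9 to 32 in surrogate-peer and from 35 to 47 in peer animals. The labels do not explain them, and between these groups rearing and number cannot be told apart. For the 3 genes that rose against maternal animals the difference was near 0: SIRT1 had -0.01 (95% interval -0.40 to 0.37), KMT5B 0.01 (-0.20 to 0.22) and HDAC2 -0.09 (-0.30 to 0.12).

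Cell type markers are given beside 3 genes picked after their values were seen. The B cell marker level, the mean deviation of 9 genes from their means over the 13 arrays, was 0.09, 0.54, -0.29 and 0.27 in peer animals and -0.95, -1.15, -0.18 and -0.28 in surrogate-peer animals, against 0.49, 0.99, 0.19, 0.03 and 0.25 in maternal animals. Peer array 3 and the 4 surrogate-peer arrays, the 5 lowest arrays for HDAC9, are the 5 with a level below 0. The T cell marker level ran from 0.02 to 0.33 in peer and from -0.05 to 0.36 in surrogate-peer animals, against -0.56 to -0.0032 in maternal animals.

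The maternal array highest in SIRT1, array 1, also had the highest T cell level of the maternal arrays. The other maternal arrays did not keep this order. Maternal array 3, next in T cell level at -0.05, had 9.58 in SIRT1. Maternal array 2, the lowest in T cell level at -0.56, also had 9.58. For monocyte markers, 12 genes, the levels ran from -0.64 to 0.23 in peer and from -0.52 to 0.55 in surrogate-peer animals, against -0.48 to 0.92 in maternal animals. The 3 arrays highest in SETD9 were the 3 highest in this level. The part of cell composition in these genes was not tested.

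**Figure D4:**
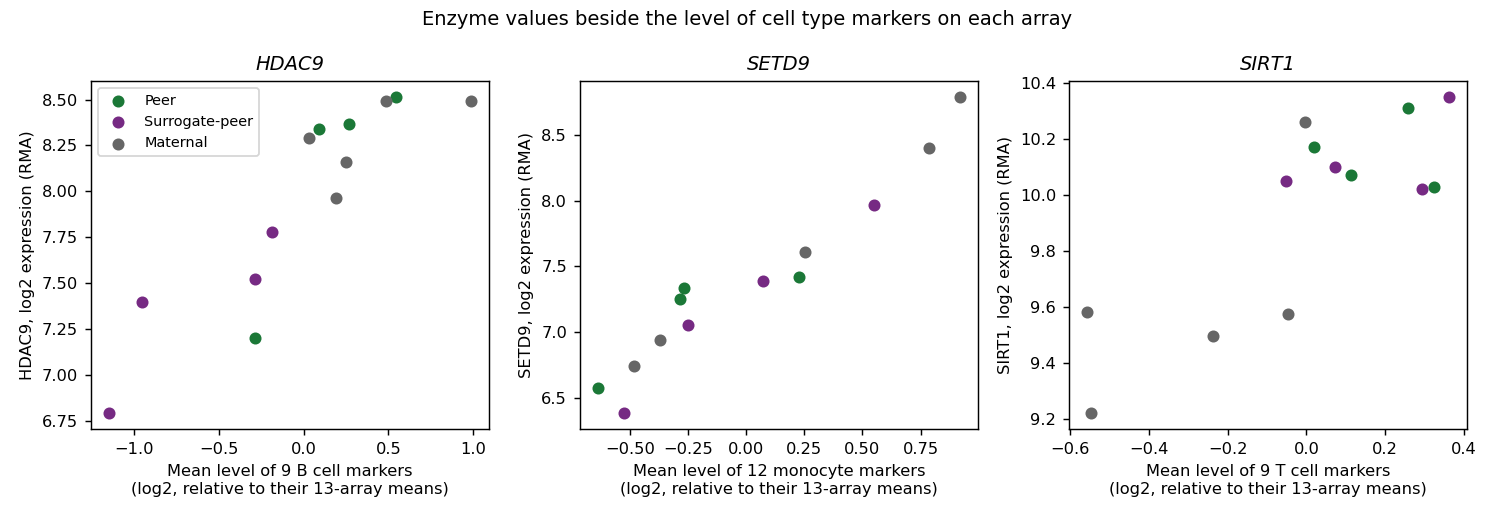
Log2 value of HDAC9, SETD9 and SIRT1 on each array (vertical axes) against the mean deviation of the B cell, monocyte and T cell markers (horizontal axes, log2), with peer, surrogate-peer and maternal arrays in different colours. The 5 lowest HDAC9 arrays, 4 surrogate-peer and 1 peer, lie left of 0 on the B cell axis, and the 3 highest SETD9 arrays lie furthest right on the monocyte axis.

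Different probe sets of a gene did not always move alike. In 29 of the enzymes another 54 probe sets passed the filter, and 15 of these, in 12 genes, had the opposite sign of the brightest one. Of the 54, 3 were called, those of HDAC2, KDM4B and KAT8 named above. The other 21 enzymes rest on 1 tested probe set.

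**Figure D5:**
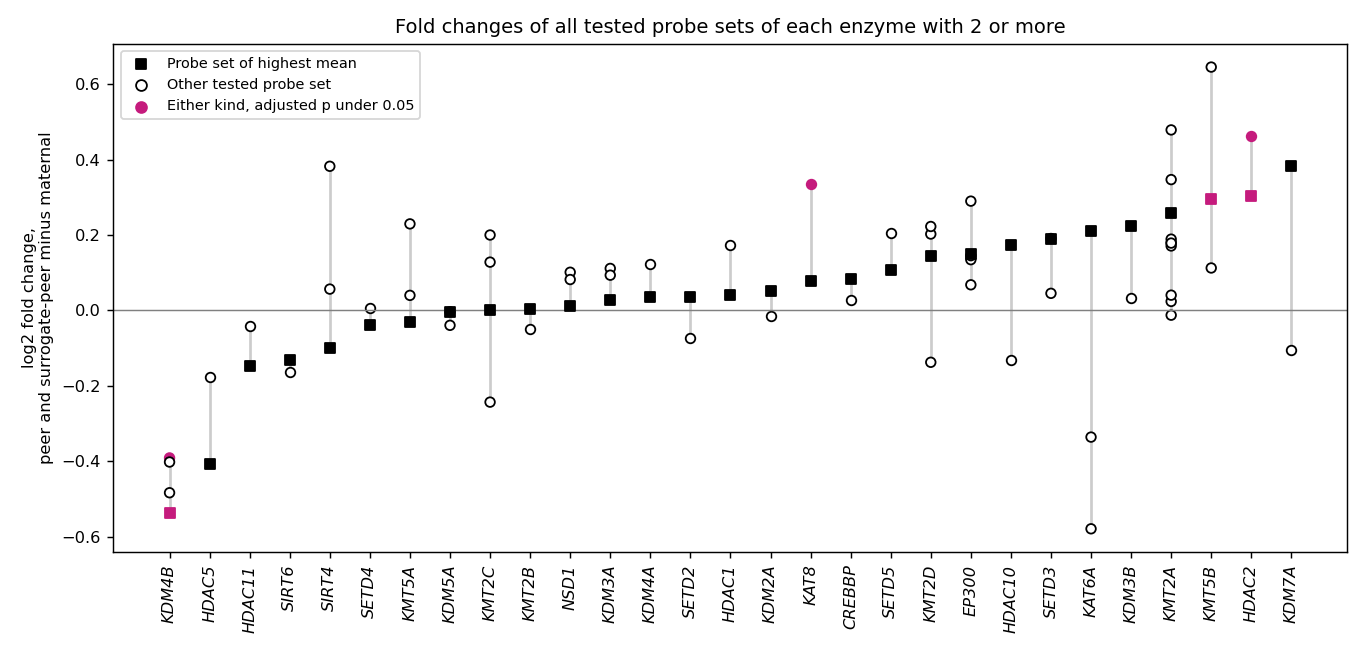
Log2 fold change, peer and surrogate-peer together minus maternal, of the brightest probe set and of the other tested probe sets for the 29 enzymes that have several. KDM4B lies below 0 and HDAC2 above it at every probe set, while KAT6A and KDM7A fall on both sides.

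Partners of the enzymes were read from lists of complex subunits and related genes, in peer and surrogate-peer together against maternal animals. Among 24 subunits of acetyltransferase complexes 3 rose and 1 fell, or 16.7%, beside 8.0% of all tested probe sets, and 2 did not overlap between groups, beside 2.87%. TADA1, a subunit of the SAGA coactivator, had log2 values from 8.70 to 9.08 in peer animals and from 8.75 to 9.11 in surrogate-peer animals, against 7.80 to 8.65 in maternal animals. All 8 values lay above all 5, and the log2 fold change was 0.69 ± 0.13 (limma adjusted p = 0.0211). BRD1, a scaffold of KAT6 and KAT7 complexes, rose by 0.39 ± 0.09 (adjusted p = 0.0289) and MORF4L2, a subunit of the KAT5 complex, by 0.28 ± 0.07 (adjusted p = 0.0415). JADE2, another scaffold of KAT7, fell by 0.29 ± 0.07 (adjusted p = 0.0379), with all 8 values below all 5.

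Of 22 further histone-modifying enzymes 1 rose, or 4.55%, beside the same 8.0%, and it was the 1 without overlap, beside 2.87%. PRMT6, which methylates arginine 2 of histone H3, had 7.51, 7.06, 6.87 and 6.68 in peer animals and 6.87, 6.92, 6.82 and 6.83 in surrogate-peer animals, against 6.48, 6.10, 5.87, 6.26 and 6.05 in maternal animals. All 8 values lay above all 5, at 0.80 ± 0.13 (adjusted p = 0.0203). It was the only gene of the partner lists called by limma in peer animals alone (0.88 ± 0.15, adjusted p = 0.0486). There 0.353% of all tested probe sets were called. Genes of the partner lists were not followed through the alternatives. Of 13 bromodomain and related readers of histone marks 2 passed, or 15.4%, beside 8.0% of all tested probe sets. ZMYND11, a reader of methylated lysine 36 of histone H3.3, rose by 0.70 ± 0.19 (adjusted p = 0.0448) and BRD2, a BET reader of acetylated histone H4, fell by 0.35 ± 0.09 (adjusted p = 0.0368).

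By limma 0 of 17 deacetylase complex subunits, 0 of 7 COMPASS subunits, which methylate lysine 4 of histone H3, and 0 of 6 PRC2 subunits passed the threshold. Their smallest adjusted p were those of RCOR1, the CoREST scaffold (0.35 ± 0.10, adjusted p = 0.0503), PSIP1 (0.43 ± 0.13, adjusted p = 0.0609) and SUZ12, a core subunit of PRC2 (0.35 ± 0.11, adjusted p = 0.0608). MIER3 (0.78 ± 0.27) and NCOR1 (0.25 ± 0.09) came next among deacetylase complexes, RBBP5 (0.30 ± 0.14) and ASH2L (0.21 ± 0.11) in COMPASS, and PHF1 (-0.29 ± 0.13) and JARID2 (0.21 ± 0.10) in PRC2. At an unadjusted p under 0.05 there were 7 of 17, 1 of 7 and 1 of 6 genes, beside the 29.0% of all tested probe sets given above.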

How the data were processed

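Each probe set has a deposited log2 value, which the authors computed by RMA (background correction, normalization and summary of the probes), per the submitters' processing notes. The RMA settings, and whether all 13 arrays went through it together, are not given in the sources here. Precision is limited by the number of arrays. Of 52865 probe sets 158 controls were left out, and the 26352 with a mean above 6.04, the median of means, were tested. Symbols come from the platform annotation (24956 probe sets with 1 symbol, 361 with several, 27390 with none), of which 24616 matched a current gene ID and 0 changed. Groups follow the labelled rearing condition. Each array was taken as 1 animal; where samples shared a source, p-values measure only the spread between these samples.

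limma 3.58.1 in R 4.3.3 (lmFit, eBayes) fitted all 13 arrays at once. Two-sided p-values were adjusted with the Benjamini-Hochberg method across every tested probe set, and 0.05 was the threshold. On simulated data with 26352 probe sets limma called 59.7% of the changes of 1.5-fold and 85.1% of those of 2-fold in peer and surrogate-peer against maternal animals. In surrogate-peer against peer animals these were 32.8% and 74.6%. The simulated noise was independent between probe sets and had no shifts shared by an array. The shares therefore need not hold for the real arrays, which differed between groups as a whole.

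The enzymes and lists were chosen with earlier results of these data known. Per-array values are given for called genes and a list of 18 central enzymes, 13 measured; in each role the gene of smallest p may be named, and of each partner list up to 8 called genes or the smallest p. Alternatives changed the filter, scaling, probe set rule, weights, covariate, prior and arrays used. No sequence is printed.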

Additional observations from a re-analysis of the deposited data

Results flagged for a closer look

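Over 75 groups of 4 or 5 arrays, 3 for each of 25 enzymes, an array stood far from the rest of its group in 2. Chance gives about 1 in 20, or 3.75 of the 75, so these 2 are fewer than chance gives. HDAC9 in peer array 3, at 7.20, was the lowest of the peer arrays, with a gap to the next of 0.866 of the group's range. HDAC3 in the same array, at 8.83, was lowest with a gap of 0.867 of the range.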

How the results depend on the processing

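The 4 enzymes called in peer and surrogate-peer against maternal animals became 2 with no filter, 1 after centring, 1 after quantile normalization, 1 with a trended robust prior and 0 without maternal arrays 2 and 5. The calls over all tested probe sets, 8.0%, were then 2.78%, 7.32%, 5.07%, 7.21% and 0.14% in the same order. They were 0 to 7 with single arrays left out: 7 without maternal array 1, and 0 without maternal array 4 or 5, peer array 1 or 4, or surrogate-peer array 3. The share of all tested probe sets called was 18.3% without maternal array 1, 0.11% without maternal array 4, 0.216% without maternal array 5, 1.18% without peer array 1, 3.38% without peer array 4 and 1.89% without surrogate-peer array 3. In peer animals alone the count of 0 became 1 with array weights (5.86% of all tested probe sets), 2 with the title number as covariate (6.90%) and 0 to 6 with single arrays left out, with 6 without maternal array 1 (13.2%). In surrogate-peer animals alone it was 0 to 4, highest without maternal array 1 (7.96% of all tested probe sets), and against peer animals 0 throughout. No paired analysis was possible because the labels give no replicate numbers shared between groups. The fit on only the arrays compared does not apply to the first comparison, which uses all 13.

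Among all 50 tested enzymes, positive signs in the first comparison went from 33 to 23 with centring and to 24 with quantile normalization. Signs were followed gene by gene for 25 enzymes only, so the genes below are not the full set. Some of their log2 fold changes changed sign. Several of these were near 0 in the fit given above. Larger ones there were SETD9 (-0.52), KMT2A (0.26), KAT6A (0.21) and HDAC9 in peer against maternal animals (-0.17). With centring SETD2 was -0.027, NSD1 -0.050, KDM1A -0.022 and HDAC1 -0.022. With quantile normalization SETD2 was -0.057, NSD1 -0.081 and KDM1A -0.049. With gene means SETD2 was -0.019 and KAT6A -0.23. NSD1 was -0.065 with weights and CREBBP -0.037 with the title number. Without maternal arrays 2 and 5 KMT2A was -0.0061, NSD1 -0.24, KDM1A -0.079 and SETD9 0.076 (0.050 in peer and 0.10 in surrogate-peer animals alone). With single arrays left out CREBBP ran from -0.030 to 0.18, KDM1A from -0.0375 to 0.090, NSD1 from -0.10 to 0.14, SETD2 from -0.0046 to 0.068 and HDAC9 in peer against maternal animals from -0.31 to 0.13. The cause of these changes was not tested. Over all tested probe sets centring gave 1094 higher and 834 lower calls and quantile normalization 886 and 451, against 1751 and 356.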
